A study of Homo sapiens with 18 samples.

Results

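The genes described here encode the proteins that make, load, recycle, break down and sense acetylcholine. They were chosen by symbol, as CHAT, SLC18A3, SLC5A7, ACHE, CHRNA3, CHRNA5, CHRNA7, CHRNB2, CHRNB4 and CHRM3. All 10 had a row among the 26372 gene symbols of the deposited table. RNA-seq gave their expression in SH-SY5Y, an established human neuroblastoma line of sympathetic origin that can be driven toward a neuron-like state. All 18 libraries came from cells infected with a lentivirus carrying ZNHIT3, a zinc-finger protein that acts in the assembly of small nucleolar ribonucleoproteins, and none of them lacked such a construct. The virus was built from the FUGW plasmid and carried ZNHIT3-WT, ZNHIT3-C14R or a ZNHIT3 deletion, on top of whatever ZNHIT3 the cells express themselves. The treatment labels give the deleted positions as 251-254 in replicate 1, 251-255 in replicate 2 and 251-256 in replicate 3, while the sample titles call all of these libraries depleted, and they were kept as 1 deletion group per day. Day 0 and day 18 were sampled for each construct, with 3 libraries in each of the 6 groups. For differentiation, 48 hours after infection, cells were moved from medium with 15% fetal bovine serum to serum-free neurobasal/B27 medium with 10 μM all-trans retinoic acid, BDNF at 50 ng/ml, dibutyryl cyclic AMP at 2 mM and KCl at 20 mM. The labels do not say whether the 3 libraries of a group came from separate cultures, so p-values measure the spread between libraries, which may be technical.

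Acetylcholine is made from choline and acetyl-CoA by choline acetyltransferase (CHAT) and packed into vesicles by the vesicular acetylcholine transporter (SLC18A3). After release it is split by acetylcholinesterase (ACHE), and the choline is taken back up by the high-affinity choline transporter (SLC5A7). It acts on nicotinic receptors, ion channels of several subunits that in sympathetic ganglia contain the products of CHRNA3, CHRNB4, CHRNA5, CHRNB2 and CHRNA7, and on muscarinic receptors coupled to G proteins, of which CHRM3 signals through Gq and phospholipase C.

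Values are FPKM, which divide a gene's fragment count by its transcript length and by the library's mapped total. Of the 9 markers of sympathetic neuroblastoma examined (among them PHOX2A, GATA3, HAND2, ISL1, STMN2, CHGA, DBH and TH), 8 had a median of at least 1 FPKM on both days. The exception was TH, the first enzyme of catecholamine synthesis, whose median was under 1 FPKM on both days and whose highest library, at day 18, had 1.02 FPKM. As a check of the labels, ZNHIT3 itself stood at 538 ± 6.33 FPKM in the WT group of day 0, at 424 ± 7.09 in the C14R group and at 302.5 ± 9.40 in the deletion group, and on day 18 at 1153 ± 46.1, 653 ± 88.9 and 301.5 ± 9.89 (SD, n = 3 each). These values pool delivered and endogenous transcripts. Relative depth was estimated from genes under 1 FPKM in all libraries. The most common ratio of each library to WT replicate 2 of day 18 was assumed to come from genes with equal fragment counts in both. That put the relative depth at 59.0% to 83.5% of the deepest library at day 0 and 81.2% to 100% at day 18. The absolute depth is unknown. The first library of C14R at day 18 stood apart: it held the lowest of the 9 day 18 values for 27.0% of the tested genes and the highest for 27.2%.

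Between day 0 and day 18, all but 1 of the cholinergic genes changed by more than the spread between libraries. No day 18 library was kept in the serum medium. The parts of the added factors, the loss of serum, and time in culture and since infection therefore cannot be told apart. From day 0 to day 18, ACHE rose most, CHRM3 next, and the nicotinic subunit genes and SLC18A3 rose between 1.47- and 2.53-fold by the ratio of group means. SLC5A7 fell to between 12.5% and 15.1% of its day 0 mean. CHAT was listed below 0.4 FPKM in every library of either day and was too low for the fit. Of the 10 genes, 9 passed the filter of a mean of at least 1 FPKM and all 9 passed a limma adjusted p of 0.05 in each of the 3 constructs, 8 of them higher and 1 lower at day 18 in each. Among the 13785 genes tested, 72.2% passed in WT (38.2% higher, 34.0% lower), 72.9% in C14R (37.9% and 35.0%) and 73.0% in deletion libraries (38.6% and 34.4%), and 33.3% were called higher and 29.7% lower in all 3. Most genes thus changed, and the 9 calls are to be read against that share. The median change of the 9 genes was 0.91, 0.95 and 0.97 for WT, C14R and deletion on the log2(FPKM + 1) scale, against 0.03, 0.02 and 0.03 over all genes tested. With small RNA genes left out and the rest rescaled, the median over all genes was 0.21, 0.18 and 0.22, and the share of calls that were higher went from 52.9% to 68.4% in WT, from 52.0% to 66.3% in C14R and from 52.8% to 69.3% in deletion libraries, while the 9 genes kept their direction and their call. Day 0 and day 18 libraries did not overlap for any of the 9 in any construct, which held for 75.7%, 71.8% and 77.7% of all tested genes. Schwann cell markers were higher at day 18 too: 2 of the 5 examined could be tested and both rose in each construct, and the summed level of the 5 was 3.21 to 4.96 FPKM at day 0 and 8.79 to 10.7 FPKM at day 18, with SOX10 under 1 FPKM in the median of both days. Their part in the rise of the 8 genes was not tested. In these bulk libraries, fewer cells of a type and less RNA per cell cannot be told apart.

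**Figure D1:**
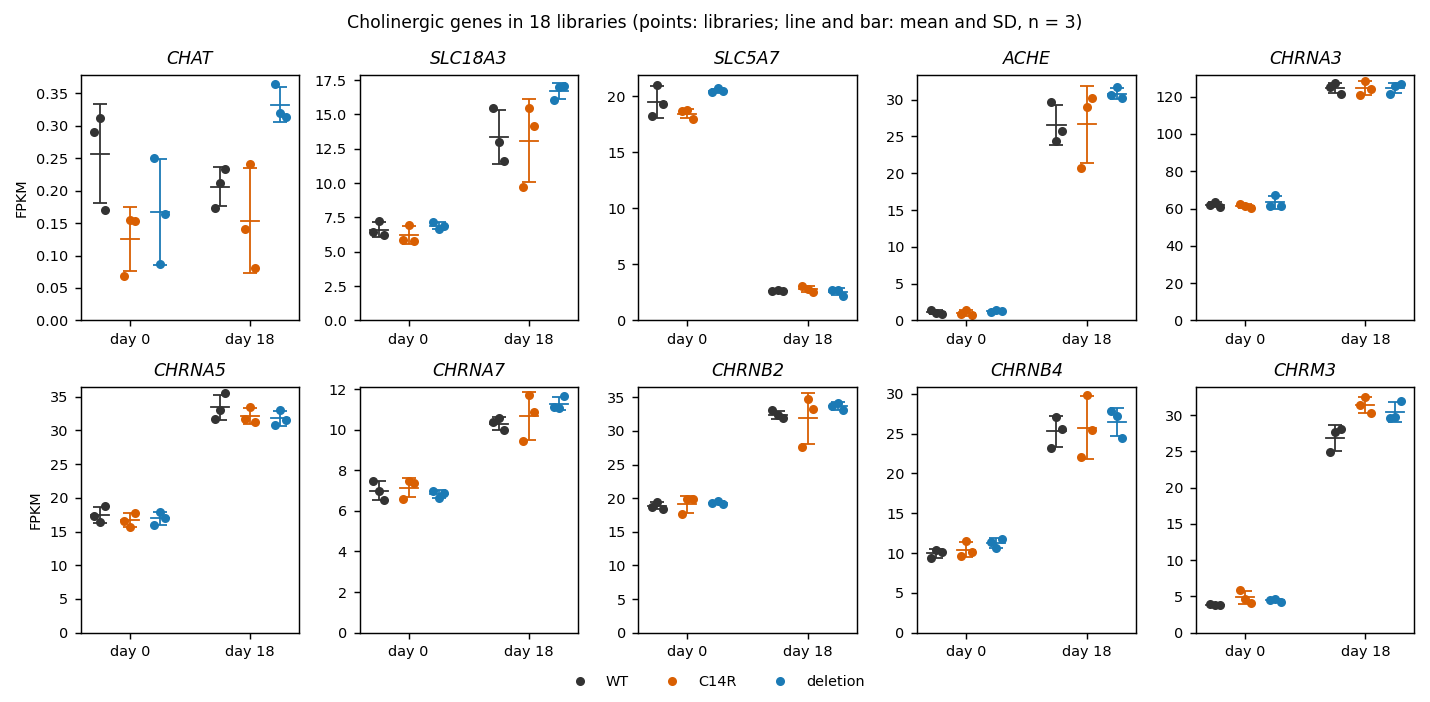
FPKM (vertical axes, from 0, each gene on its own scale) of the 10 cholinergic genes in the 18 libraries, grouped by day and coloured by construct. Points are libraries and lines with bars are the mean and SD of 3. Day 18 points lie above day 0 points for 8 genes and below them for SLC5A7, while CHAT overlaps in WT and in C14R.

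CHAT, the enzyme that defines a cholinergic neuron, was the lowest of the 10 genes on both days. At day 0 it had 0.290, 0.312 and 0.170 FPKM in WT, 0.0686, 0.154 and 0.153 in C14R, and 0.251, 0.0873 and 0.164 in deletion libraries. At day 18 it had 0.174, 0.211 and 0.233 in WT, 0.141, 0.241 and 0.0802 in C14R, and 0.364, 0.320 and 0.314 in deletion libraries. The days overlapped in WT and C14R, whereas the deletion libraries of day 18 lay above those of day 0. With the day relabelled within each construct, the day 18 minus day 0 difference of 0.06 on the log2(FPKM + 1) scale had an exact two-sided permutation p of 0.212 over 8000 relabelings, where the smallest possible is 0.00025. In the fit without a filter, CHAT passed in deletion libraries (log2 change 0.19, limma adjusted p = 0.0188) and did not pass in WT (-0.06, 0.554) or C14R (0.03, 0.835). The test of the difference between deletion and WT in that change gave 0.25 with a limma adjusted p of 0.622. Relative depth also rose from day 0 to day 18, and its part in these low values was not tested.

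SLC18A3, the vesicular transporter, had far more signal than CHAT although both share a locus on chromosome 10. SLC18A3 (GRCh38 chromosome 10, 49610301 to 49612720, plus strand) is a single-exon gene lying inside CHAT (49609095 to 49665104, plus strand) between CHAT exons, with 0 exonic bases shared. Its mean over the 9 libraries of a day was 6.58 FPKM at day 0 and 14.4 FPKM at day 18. In WT it rose from 6.41, 7.22 and 6.22 FPKM to 15.5, 13.0 and 11.6 FPKM, changing by 0.91 on the log2 scale (SE 0.13, limma adjusted p = 4.7e-06). In C14R it rose from 5.88, 6.98 and 5.77 FPKM to 9.70, 15.5 and 14.1 FPKM (0.95, limma adjusted p = 2.9e-06), with replicate 1 of day 18 the lowest. In deletion libraries it rose from 7.19, 6.66 and 6.84 FPKM to 16.02, 17.0 and 17.1 FPKM (1.17, limma adjusted p = 2.2e-07). The libraries were depleted of ribosomal RNA and not selected for polyadenylated RNA, so fragments of unspliced CHAT RNA would fall on SLC18A3, and their part was not tested.

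SLC5A7 went the other way. This choline transporter (chromosome 2, 107986523 to 108013994, plus strand) was, with CHRNB2, among the more abundant of the 10 at day 0 and next to lowest at day 18. WT libraries held 18.2, 21.0 and 19.3 FPKM before and 2.62, 2.70 and 2.67 FPKM after differentiation. In C14R the values were 18.7, 18.8 and 18.0 FPKM and then 3.04, 2.82 and 2.50 FPKM. In deletion libraries they were 20.4, 20.7 and 20.4 FPKM and then 2.73, 2.75 and 2.21 FPKM. Every day 18 library thus lay below every day 0 library, by 7.33-fold in WT, 6.63-fold in C14R and 7.999-fold in deletion libraries by group means. It fell by 2.48 in WT (SE 0.07, limma adjusted p = 3.0e-15), fell by 2.36 in C14R (limma adjusted p = 5.8e-15) and fell by 2.60 in deletion libraries (limma adjusted p = 1.5e-15) on the log2(FPKM + 1) scale. Fibroblast markers fell over the same days: of 5 genes (COL1A1, COL1A2, COL3A1, DCN, LUM) 4 could be tested and all 4 were lower at day 18 in each construct, with a summed level of 235 to 264 FPKM at day 0 and 28.9 to 44.5 FPKM at day 18, and none at 0. Their part in the fall of SLC5A7 was not tested.

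ACHE (chromosome 7, 100889994 to 100896974, minus strand), which ends the signal by splitting acetylcholine, had the largest change of the 10. At day 0 it had 1.44, 1.02 and 0.878 FPKM in WT, 0.893, 1.45 and 0.709 in C14R, and 1.08, 1.38 and 1.23 in deletion libraries. At day 18 it had 29.6, 24.4 and 25.7 FPKM in WT, 20.7, 29.1 and 30.2 in C14R, and 30.6, 31.7 and 30.2 in deletion libraries. The lowest day 18 library, replicate 1 of C14R, was still far above the highest day 0 library. The ratio of group means was 23.85, 26.2 and 25.1 for WT, C14R and deletion. The log2 change was 3.71 in WT (SE 0.14, limma adjusted p = 2.0e-13), 3.77 in C14R (limma adjusted p = 1.6e-13) and 3.84 in deletion libraries (limma adjusted p = 1.2e-13), and because day 0 values lie near the pseudocount of 1 this scale understates the fold. PRIMA1, the anchor that holds the enzyme in the membrane of neurons, fell in WT from 6.19 ± 0.144 to 2.28 ± 0.246 FPKM (SD, n = 3; log2 change -1.14, limma adjusted p = 1.4e-10). COLQ, which tethers it to the basal lamina, rose from 1.17 ± 0.357 to 1.79 ± 0.201 FPKM (SD, n = 3; limma adjusted p = 0.0058), and BCHE, the related butyrylcholinesterase, was below the filter.

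The promoter windows of the gene that fell and of the gene that rose most are shown so that both can be compared base by base. Each runs from 250 bases before to 50 bases after a RefSeq transcript start on GRCh38.p14, in the 5′ to 3′ direction of the gene. Capitals mark the GC box, GGGCGG on either strand, overlapping matches included. SLC5A7 lies at chr2:107986274-107986573 on the plus strand and ACHE, which has 3 such windows of which the GC-box-rich one is shown, at chr7:100895839-100896138 on the minus strand.
SLC5A7: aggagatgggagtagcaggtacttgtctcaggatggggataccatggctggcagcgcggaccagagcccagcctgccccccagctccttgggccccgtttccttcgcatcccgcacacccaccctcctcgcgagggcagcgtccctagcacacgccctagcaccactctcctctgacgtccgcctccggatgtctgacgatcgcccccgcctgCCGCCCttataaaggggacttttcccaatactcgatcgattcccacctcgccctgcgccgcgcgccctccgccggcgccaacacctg
ACHE: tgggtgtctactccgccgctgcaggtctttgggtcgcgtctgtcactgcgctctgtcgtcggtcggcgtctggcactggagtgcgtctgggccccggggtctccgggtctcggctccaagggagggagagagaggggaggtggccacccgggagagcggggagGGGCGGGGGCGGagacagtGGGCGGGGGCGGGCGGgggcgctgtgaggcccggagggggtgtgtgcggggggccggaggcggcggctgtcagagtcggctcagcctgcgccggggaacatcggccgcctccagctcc
The SLC5A7 window holds 1 GC box and the ACHE window shown holds 5. The ACHE windows not shown hold 0 and 1, so the choice of window sets this contrast. The GC contents of the windows shown are 66.3% and 74.7%, against a median of 58.7% over all 35116 promoter windows of this length. Neither window shown holds TGACGTCA, the cyclic AMP response element, AGGTCA, a core element bound by nuclear receptors, or CAGCTG, an E-box, on either strand. Those letters occur in 1.85%, 13.8% and 17.9% of all windows. These are matches of letters and were not related to binding.

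**Figure D2:**
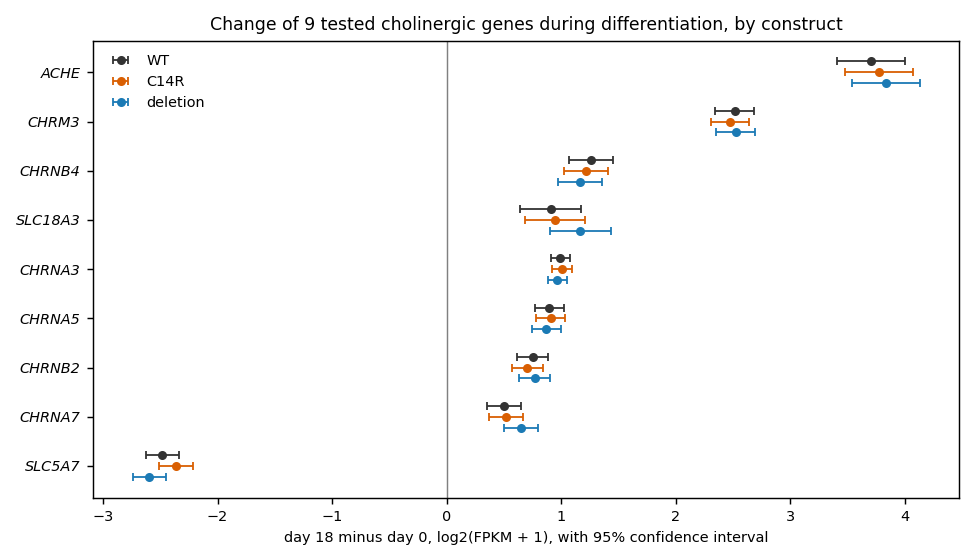
Change from day 0 to day 18 on the log2(FPKM + 1) scale (horizontal axis) for the 9 tested cholinergic genes, one symbol per construct, with 95% confidence intervals from limma. ACHE lies at 3.71 to 3.84 and CHRM3 at 2.47 to 2.52, 6 genes lie between 0.50 and 1.26, and SLC5A7 lies at -2.60 to -2.36. The intervals of the 3 constructs overlap for every gene.

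Among the receptor genes, the nicotinic subunits rose together and by small amounts. CHRNA3, an alpha subunit that forms the main ganglionic receptor with the CHRNB4 product, was the most abundant of the 10 genes on both days. Its day 0 values were 61.9, 63.4 and 61.0 FPKM for WT, 62.7, 61.2 and 60.3 for C14R and 61.1, 67.4 and 61.4 for the deletion. At day 18 it had 125, 127 and 121 FPKM in WT, 121, 128 and 124 in C14R and 121, 126 and 127 in deletion libraries. All day 18 libraries lay above all day 0 libraries, with ratios of group means of 2.01, 2.03 and 1.97. The log2 change was 0.99 in WT (SE 0.04, limma adjusted p = 4.0e-13), 1.007 in C14R (limma adjusted p = 3.4e-13) and 0.97 in deletion libraries (limma adjusted p = 5.5e-13).

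CHRNA5, an accessory alpha subunit, followed CHRNA3 closely. In WT it rose from 17.3, 16.4 and 18.8 to 31.7, 33.1 and 35.5 FPKM, in C14R from 16.5, 15.7 and 17.8 to 31.7, 33.5 and 31.3 FPKM, and in deletion libraries from 15.99, 17.9 and 17.0 to 30.8, 33.0 and 31.5 FPKM. All day 18 libraries lay above all day 0 libraries, with log2 changes of 0.90, 0.91 and 0.87 (limma adjusted p = 4.0e-10, 3.4e-10 and 5.7e-10). CHRNB4, the beta subunit of the same cluster, rose more. It went in WT from 9.36, 10.4 and 10.1 to 23.2, 27.1 and 25.5 FPKM, in C14R from 9.67, 11.5 and 10.1 to 21.99, 29.8 and 25.4 FPKM, and in deletion libraries from 11.4, 10.6 and 11.8 to 27.8, 27.2 and 24.4 FPKM. Its log2 changes were 1.26, 1.22 and 1.16 (SE 0.09, limma adjusted p = 1.2e-09, 1.9e-09 and 3.5e-09).

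These subunit genes are neighbours on chromosome 15. CHRNA5 (78565520 to 78595269, plus strand) and CHRNA3 (78593052 to 78621295, minus strand) face each other and overlap by 2218 bases at their 3′ ends, of which 198 are exonic in both. CHRNB4 (78624119 to 78727754, minus strand) lies beyond CHRNA3, with 2823 bases between the annotated genes. Since the use of strand is not stated, fragments from the shared exonic bases cannot be assigned. In FPKM, CHRNA3 exceeded CHRNA5 3.66 ± 0.226-fold at day 0 and 3.84 ± 0.176-fold at day 18 (SD over 9 libraries). That ratio differed between days by 0.07 on the log2 scale (exact permutation p = 0.0777 within constructs), and this p fell to 0.029 without WT replicate 2 of day 0 and to 0.0205 without WT replicate 3 of day 18. CHRNA3 exceeded CHRNB4 5.93 ± 0.525-fold at day 0 and 4.86 ± 0.425-fold at day 18, a log2 difference of -0.29 (exact permutation p = 0.001). These and 2 further ratios were chosen after the values were seen, and their p-values are unadjusted. Genes on either side moved in different directions in WT: PSMA4 fell by 0.22 and ADAMTS7 fell by 0.38 on the log2 scale, while IREB2 rose by 0.28, MORF4L1 by 0.31 and HYKK by 0.86 (limma adjusted p = 0.0008, 0.013, 9.2e-05, 0.00014 and 0.0001).

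The promoter windows of CHRNA3 and CHRNB4 are shown because these neighbours rose together and are transcribed from the same strand. They lie at chr15:78620947-78621246 and chr15:78641161-78641460 on the minus strand of GRCh38.p14. The RefSeq table used here had no window for CHRNA5. Capitals mark GC boxes as above and, in CHRNB4, the E-box CAGCTG.
CHRNA3: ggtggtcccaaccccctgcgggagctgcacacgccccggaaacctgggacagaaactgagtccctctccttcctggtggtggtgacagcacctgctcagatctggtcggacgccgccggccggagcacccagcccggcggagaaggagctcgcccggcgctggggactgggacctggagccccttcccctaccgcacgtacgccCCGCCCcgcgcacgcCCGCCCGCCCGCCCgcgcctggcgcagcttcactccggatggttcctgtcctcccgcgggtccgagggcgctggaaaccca
CHRNB4: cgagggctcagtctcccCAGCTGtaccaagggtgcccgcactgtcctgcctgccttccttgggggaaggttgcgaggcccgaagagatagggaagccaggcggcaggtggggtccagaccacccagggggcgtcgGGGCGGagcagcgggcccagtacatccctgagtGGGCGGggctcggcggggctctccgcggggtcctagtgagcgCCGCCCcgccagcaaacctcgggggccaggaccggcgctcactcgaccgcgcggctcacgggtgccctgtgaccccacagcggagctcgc
The CHRNA3 window holds 4 GC boxes, 3 of them overlapping, and the CHRNB4 window holds 3. Their GC content was the same, 72.7%. Over the 14 windows of the 9 cholinergic genes with an entry, 11 hold at least 1 GC box, against 45% of all windows of this length. Windows of a gene can overlap, as both of CHRNA7 do, and by gene 7 of 9 hold a GC box in at least 1 window. The 45% is a share of windows, so it is not a like comparison for that count by gene. The GC content of the 14 windows was 54.3% to 79%, against a median of 58.7% over all windows of this length. CHRM3, CHRNB2 and 1 of the ACHE windows hold none. The cyclic AMP response element is in 0 of the 14, AGGTCA in 1 (CHRNB2) and CAGCTG in 1 (CHRNB4).

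CHRNB2 (chromosome 1, 154567781 to 154580026, plus strand) encodes the beta subunit of the main nicotinic receptors of the brain. It rose in WT from 18.7, 19.4 and 18.4 to 33.0, 32.3 and 31.9 FPKM, in C14R from 17.7, 19.8 and 19.9 to 27.6, 34.7 and 33.3 FPKM, and in deletion libraries from 19.3, 19.6 and 19.1 to 33.8, 34.2 and 33.1 FPKM. The log2 changes were 0.75, 0.70 and 0.77 (SE 0.06, limma adjusted p = 1.2e-08, 2.9e-08 and 8.4e-09). The beta subunits shifted relative to each other: CHRNB2 exceeded CHRNB4 1.82 ± 0.122-fold at day 0 and 1.27 ± 0.0811-fold at day 18 (SD over 9 libraries), and the 9 values of each day did not overlap. The log2 difference was -0.52 (exact permutation p = 0.00025, the smallest that 8000 relabelings can give).

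CHRNA7 (chromosome 15, 31923438 to 32173018, plus strand) encodes a subunit that forms receptors of its own with high calcium permeability, and it changed least of the 9 tested genes. WT libraries held 7.48, 6.97 and 6.55 FPKM before and 10.4, 10.6 and 9.96 FPKM after differentiation. In C14R it went from 6.59, 7.47 and 7.37 to 9.42, 11.7 and 10.9 FPKM, and in deletion libraries from 6.98, 6.62 and 6.89 to 11.1, 11.1 and 11.7 FPKM. The days did not overlap, and the log2 changes were 0.50, 0.52 and 0.65 (SE 0.07, limma adjusted p = 5.1e-06, 3.4e-06 and 2.0e-07). CHRNA7 shares near-identical exons with CHRFAM7A, a human-specific fusion gene on the same chromosome (30357766 to 30393849, minus strand), so the division of fragments between them is uncertain. CHRFAM7A was listed at 0.894 ± 0.0986 FPKM in WT at day 0 and 2.07 ± 0.384 at day 18 (SD, n = 3; log2 change 0.69, limma adjusted p = 6.7e-05; 1.11 with a pseudocount of 0.1). The ratio of CHRNA7 to CHRFAM7A went from 8.44 ± 1.16 to 4.98 ± 0.709 (SD over 9 libraries; log2 difference -0.76, exact permutation p = 0.00025, the smallest possible).

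**Figure D3:**
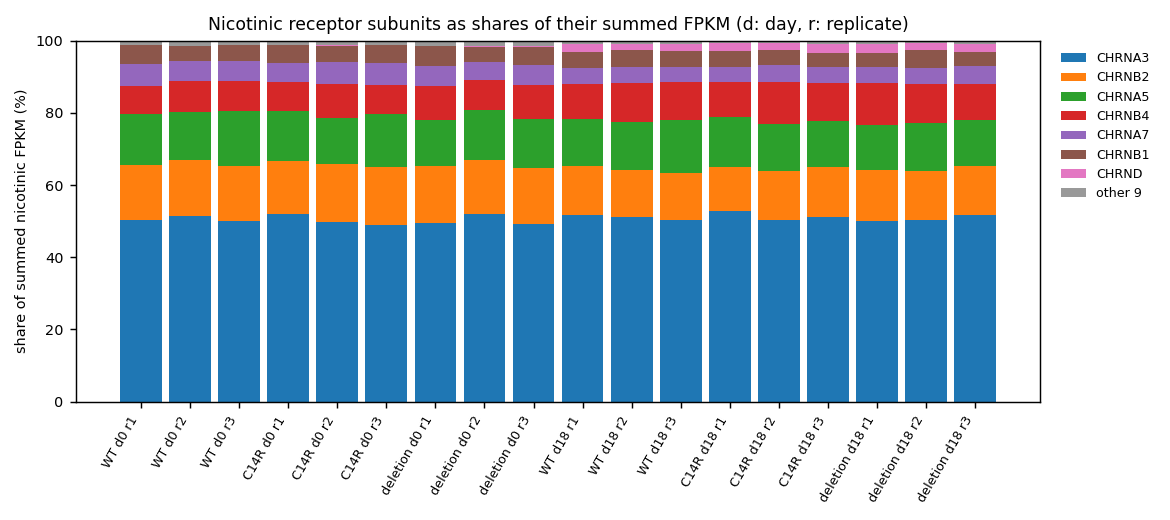
Each bar is a library and shows the share (%) of every nicotinic subunit gene in the summed FPKM of the 16 subunit rows, CHRFAM7A left out. CHRNA3 keeps a share of 49.0% to 52.9% in all libraries, while CHRND is visible at day 18 only, at 1.72% to 2.53%.

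Summed over 16 nicotinic subunit rows, which are per length and can be added, the level went from 120 to 130 FPKM at day 0 to 228 to 255 FPKM at day 18. CHRNA3 made up 49.0% to 52.9% of that sum over all libraries, while the library ranges of the shares of CHRNB4, CHRNB2, CHRNA7 and CHRND did not overlap between days. The same held for the low rows CHRNA4, CHRNA9, CHRNA10, CHRNE and CHRNG, none above 0.787% of the sum in any library. The median share of CHRNA3 was 50.0% at day 0 and 51.2% at day 18, that of CHRNB4 8.30% and 10.6%, that of CHRNB2 15.3% and 13.6%, that of CHRNA5 13.7% and 13.1%, and that of CHRNA7 5.64% and 4.44%. Of the 12 other nicotinic rows (CHRFAM7A included), 3 could be tested and all 3 rose in each construct. CHRND and CHRFAM7A had day 0 group means under 1 FPKM and passed the filter only through day 18, so the filter favoured a rise. The 33.3% of all tested genes called higher in all 3 constructs is therefore not a like comparison. CHRND, a subunit of the muscle receptor, went in WT from 0.110 ± 0.0507 to 4.81 ± 0.427 FPKM (SD, n = 3; log2 change 2.39, limma adjusted p = 1.4e-12), and with a pseudocount of 0.1 in place of 1 that change was 4.57. CHRNB1, the muscle beta subunit, rose from 5.65 ± 0.736 to 11.3 ± 0.310 FPKM (0.89, limma adjusted p = 1.6e-07). None of the 5 skeletal muscle markers (MYOD1, MYOG, DES, ACTA1, CKM) reached a median of 1 FPKM on either day, and their sum stayed at or below 0.815 FPKM. CHRNB3 was listed at 0 in all 18 libraries.

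CHRM3 (chromosome 1, 239386565 to 239915452, plus strand), the muscarinic receptor gene, had the second largest rise. Its day 0 values were 3.91, 3.84 and 3.85 FPKM for WT, 5.82, 4.70 and 4.09 for C14R and 4.54, 4.61 and 4.26 for the deletion. At day 18 it had 24.9, 27.7 and 28.0 FPKM in WT, 31.5, 32.4 and 30.3 in C14R and 29.6, 29.8 and 32.0 in deletion libraries. The WT libraries were the lowest of the 3 constructs on both days. The rise was 6.95-fold, 6.45-fold and 6.81-fold by group means, with log2 changes of 2.52, 2.47 and 2.52 (SE 0.08, limma adjusted p = 1.8e-14, 2.3e-14 and 1.6e-14). CHRM3-AS2, an antisense gene that shares 269 exonic bases with CHRM3, went from 0.712 to 3.72 FPKM over the same days, and without strand the share of its fragments in CHRM3 cannot be told apart.

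The other muscarinic receptors divided. Of 4, 3 could be tested, and in each construct 1 rose and 2 fell, where 72.2% to 73.0% of all tested genes were called. CHRM2, a Gi-coupled receptor and at day 0 the most abundant muscarinic gene, fell in WT from 24.3 ± 1.42 to 9.82 ± 0.658 FPKM (SD, n = 3; log2 change -1.23, limma adjusted p = 7.3e-09). CHRM1, coupled to Gq like CHRM3, fell from 2.81 ± 0.513 to 1.60 ± 0.144 FPKM (-0.55, limma adjusted p = 0.00048). CHRM4, coupled to Gi, rose from 0.224 ± 0.187 to 2.65 ± 0.302 FPKM (1.58, limma adjusted p = 5.7e-08; 3.27 with a pseudocount of 0.1). It passed the filter only through its day 18 values, so the filter favoured a rise. CHRM3 thus stood below CHRM2 in group means at day 0 and above it at day 18.

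In the order of levels at day 0, CHRNA3 (mean 62.3 FPKM over 9 libraries) stood apart from all others, then came SLC5A7, CHRNB2 and CHRNA5 at 19.5, 19.1 and 17.1 FPKM, whose library ranges overlapped from one to the next. CHRNB4 followed at 10.6 FPKM, CHRNA7, SLC18A3 and CHRM3 at 6.99, 6.58 and 4.40 FPKM with overlapping neighbours, and then ACHE at 1.12 and CHAT at 0.183 FPKM, apart from each other. At day 18 CHRNA3 was again apart at 124.5 FPKM. CHRNB2, CHRNA5, CHRM3, ACHE and CHRNB4, at 32.6, 32.4, 29.6, 28.0 and 25.8 FPKM, overlapped with their neighbours, as did SLC18A3 and CHRNA7 at 14.4 and 10.7 FPKM. SLC5A7 and CHAT, at 2.67 and 0.231 FPKM, each stood apart.

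Differences between constructs were small beside those between days. None of the 9 tested genes passed a limma adjusted p of 0.05 in C14R against WT, deletion against WT or C14R against deletion on either day. Among all genes tested, 0% passed for C14R against WT at day 0, 0.0363% for C14R against WT at day 18, 0.0290% for deletion against WT at day 0, 0.0725% for deletion against WT at day 18, 0.0580% for C14R against deletion at day 0 and 0.0290% at day 18. At an unadjusted p under 0.05, the number of the 9 genes was 1, 1, 0, 2, 0 and 1 in the same order, against 2.81%, 11.1%, 6.22%, 11.4%, 9.84% and 11.2% of all genes. The interaction of construct and day passed for none, with 0 of the 9 genes at an unadjusted p under 0.05 for C14R and for deletion by limma, against 5.73% and 7.36% of all genes, where 0% and 0.0145% of all genes passed the adjusted threshold. The smallest p of an interaction belonged to SLC5A7 for C14R (0.12, SE 0.10, limma adjusted p = 0.94) and to CHRNA7 for deletion (0.15, SE 0.10, limma adjusted p = 0.82). The 95% confidence intervals of the 9 differences from WT, each taken alone, lay within -0.37 to 0.43 for C14R and -0.21 to 0.38 for deletion at day 0, and within -0.31 to 0.39 and -0.20 to 0.58 at day 18.

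Within these limits, CHRM3 had the smallest p in 3 of the comparisons. C14R exceeded WT by 0.26 at day 0 (SE 0.08, unadjusted p = 0.0047, limma adjusted p = 1) and by 0.22 at day 18 (unadjusted p = 0.014, limma adjusted p = 0.305), and the libraries did not overlap on either day. Deletion exceeded WT by 0.17 at day 0 (unadjusted p = 0.051, limma adjusted p = 0.80), again without overlap. The difference of C14R at day 0 was 0.15 to 0.36 over the fits that left out 1 library each. The count of members whose libraries did not overlap was 1 of 9 for C14R against WT on each day, where 9.47% of all genes did so at day 0 and 11.1% at day 18. It was 2 of 9 for deletion against WT at day 0 (CHRM3 and CHRNB4, both higher), against 18.0% of all genes, 8.68% in that direction.

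For deletion against WT at day 18, 5 of the 9 genes had all 3 deletion libraries above all 3 WT libraries, against 18.9% of all genes that did not overlap and 10.4% that did not overlap in that direction. These were SLC18A3, ACHE, CHRNA7, CHRNB2 and CHRM3. SLC18A3 had the smallest p, with 16.7 ± 0.600 FPKM in deletion and 13.4 ± 1.96 in WT libraries (SD, n = 3), a log2 difference of 0.31 (SE 0.13, unadjusted p = 0.024, limma adjusted p = 0.367). CHRM3 was next, with a log2 difference of 0.17 (SE 0.08, unadjusted p = 0.042, limma adjusted p = 0.42). ACHE had 30.8 ± 0.801 and 26.5 ± 2.74 FPKM, a log2 difference of 0.21 (limma adjusted p = 0.60). CHAT, not in that fit, had its 3 deletion libraries of day 18 above those of WT and of C14R. In the fit without a filter neither difference passed. Deletion against WT gave 0.14 (limma adjusted p = 0.509) and C14R against deletion -0.21 (limma adjusted p = 0.488). The shares given cover genes past the filter and are no measure for values as low as those of CHAT. In C14R against deletion at day 18, SLC18A3 again had the smallest p, with a log2 difference of -0.35 (SE 0.13, limma adjusted p = 0.42), and 1 of 9 genes did not overlap, against 12.2% of all genes. At day 0 this comparison had SLC5A7 first, at -0.14 (SE 0.07, limma adjusted p = 0.51), also as the sole gene without overlap, against 21.3% of all genes. Replicate 1 of C14R at day 18 held the lowest day 18 value for 6 of the 9 genes (SLC18A3, ACHE, CHRNA3, CHRNA7, CHRNB2, CHRNB4), against 27% of all tested genes. Replicate 2 of the same group held the highest for 5 of the 9 (CHRNA3, CHRNA7, CHRNB2, CHRNB4, CHRM3), against 9% of all tested genes. Without replicate 1 the SLC18A3 difference from deletion was -0.17 (limma adjusted p = 0.98).

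**Figure D4:**
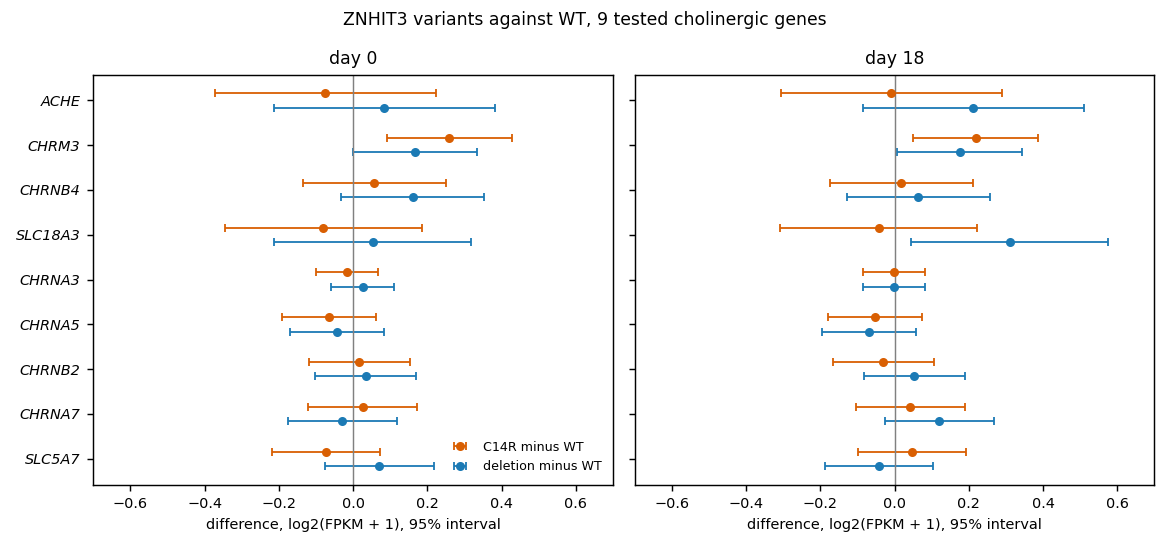
Difference of C14R and deletion from WT (horizontal axes, log2(FPKM + 1), with 95% confidence intervals from limma) for the 9 tested genes at day 0 and day 18. Most intervals include 0. Those of CHRM3 for C14R on both days, and of SLC18A3 and CHRM3 for deletion at day 18, lie above it, and no difference passed after adjustment over all genes.

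Genes around the cholinergic set gave further context in WT. Of 10 nicotinic receptor chaperones and Ly6 proteins, which fold nicotinic receptors or bind them at the surface, 6 could be tested, 4 rose and 1 fell, against 38.2% and 34.0% of all tested genes. LYPD1 went up from 2.92 ± 0.230 to 26.3 ± 1.04 FPKM (SD, n = 3; 2.80 as log2 change, limma adjusted p = 1.1e-16) and LYNX1, which dampens nicotinic receptors, from 3.02 ± 0.128 to 13.2 ± 1.72 FPKM (1.81, limma adjusted p = 3.3e-10). TMEM35 (now TMEM35A, also called NACHO), a chaperone needed for CHRNA7 receptors, rose from 6.55 ± 0.953 to 16.8 ± 2.10 FPKM (1.24, limma adjusted p = 1.3e-08), and the chaperone RIC3 from 5.35 ± 0.194 to 9.51 ± 0.731 FPKM (0.73, limma adjusted p = 5.1e-08). The median change over the 6 was 0.98, against 0.03 over all genes tested.

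Of 12 genes of choline supply and acetylcholine breakdown, 10 could be tested, 7 rose and 1 fell in WT, with a median change of 0.60. Among all tested genes, 38.2% were called higher and 34.0% lower. Counted in either direction, 8 of 10 called is close to the 72.2% of all tested genes. The choline transporter-like genes SLC44A3 and SLC44A5 rose from 1.53 ± 0.0813 to 5.04 ± 0.834 FPKM and from 9.86 ± 0.336 to 21.1 ± 0.958 FPKM (SD, n = 3; limma adjusted p = 1.1e-08 and 6.1e-11), opposite to SLC5A7. CHKA, a choline kinase that commits choline to phospholipids, rose from 10.7 ± 0.153 to 19.9 ± 0.941 FPKM (limma adjusted p = 3.8e-10). Of 12 genes of Gq signalling, 11 could be tested, 7 rose and 3 fell in WT. Of all tested genes, 72.2% were called there (38.2% higher, 34.0% lower). PLCB1, the phospholipase C activated by Gq, rose from 7.77 ± 0.324 to 26.1 ± 0.680 FPKM (log2 change 1.63, limma adjusted p = 3.0e-14), and RGS4, which turns Gq signals off, fell from 340 ± 6.44 to 173 ± 10.5 FPKM (-0.98, limma adjusted p = 2.2e-10). KCNQ3, a potassium channel subunit of the current that muscarinic receptors close, rose from 1.05 ± 0.0302 to 2.32 ± 0.0985 FPKM (0.70, limma adjusted p = 9.2e-07; 1.07 with a pseudocount of 0.1).

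**Figure D5:**
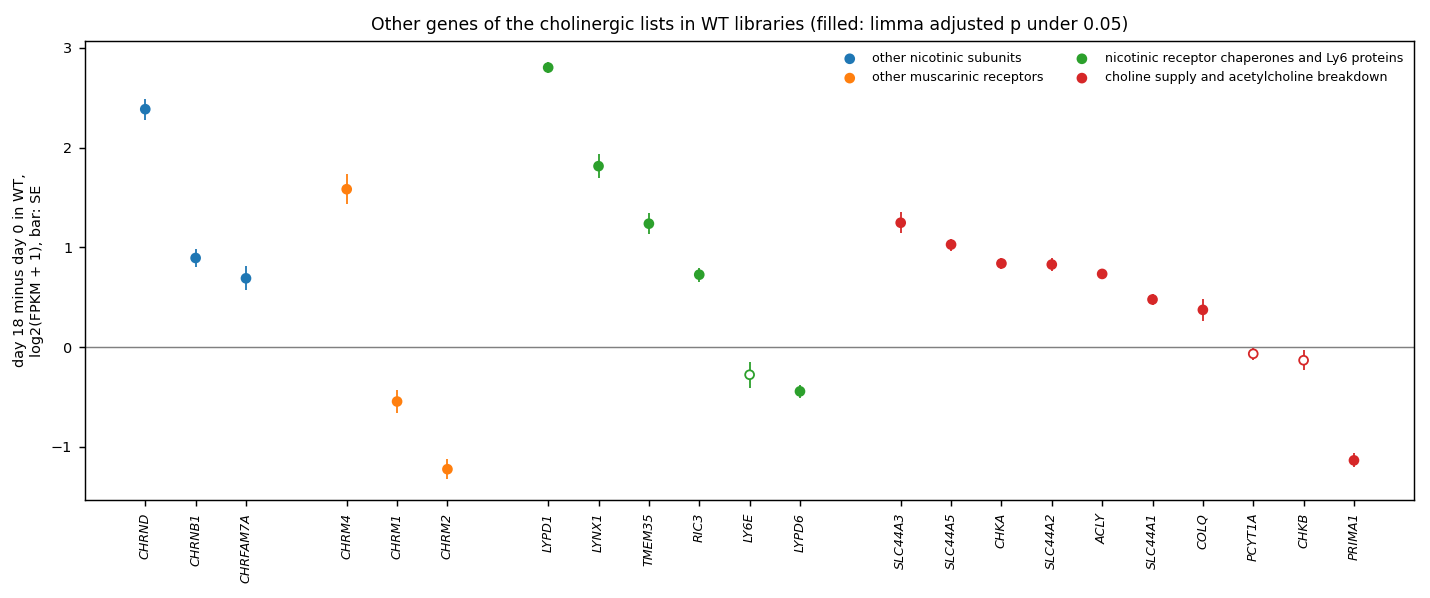
Change from day 0 to day 18 in WT on the log2(FPKM + 1) scale (vertical axis, bars are SE) for the tested genes of 4 lists around the cholinergic set, ordered by size within each list. Filled symbols passed a limma adjusted p of 0.05. LYPD1 (2.80) and CHRND (2.39) lie highest and CHRM2 (-1.23) and PRIMA1 (-1.14) lowest.

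Of 18 genes that regulate the cholinergic phenotype, 11 could be tested, 7 rose and 2 fell in WT, where 38.2% of all tested genes were called higher and 34.0% lower. LHX8, LHX3, MNX1 and GBX1, transcription factors of cholinergic neurons of the forebrain and spinal cord, were among the 7 below the filter. The receptor subunits IL6ST and CNTFR, through which cytokines such as CNTF switch sympathetic neurons to acetylcholine, rose from 28.4 ± 0.637 to 52.1 ± 2.30 FPKM and from 25.4 ± 1.60 to 44.3 ± 2.017 FPKM (SD, n = 3; limma adjusted p = 8.6e-12 and 1.2e-07). RET, the GDNF family receptor, rose from 83.1 ± 1.84 to 332 ± 2.57 FPKM (limma adjusted p = 1.1e-14).

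Likeness of pattern was measured as the root mean square difference between log2(FPKM + 1) group means over the 6 groups, each gene centred on its own mean, and is a description of few points. The closest genes to CHRNB4 were TMEM35 (0.0295) and, almost level with it, PLXNA3 (0.0299). The closest to CHRNB2 were ACLY (0.014), which makes cytosolic acetyl-CoA and went from 82.1 to 137 FPKM in WT, and RTN3 (0.019). The closest to ACHE were CRABP2 (0.101) and PART1 (0.150), and the closest to CHRM3 were SEPT4 (0.067) and ZMAT4 (0.074). SLC5A7 was nearest to IFI16 (0.023) and THBS2 (0.029), SLC18A3 to LRRC24 (0.040) and WDR86 (0.056), CHRNA3 to FER1L4 (0.015) and PKDREJ (0.017), CHRNA5 to LIG4 (0.0080) and RNF103 (0.015), and CHRNA7 to ZFHX2 and C14orf132 (both 0.012).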

How the data were processed

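RNA was extracted with TRIzol, depleted of ribosomal RNA and made into NEBNext Ultra libraries, per the labels' protocols. The authors deposited FPKM, 1 value per gene symbol and library; the unit comes from the deposited file's name. The submitters' processing notes name TopHat2, STAR, Cufflinks 2.2.1 and the build hg38, without roles; annotation, strand use and any scaling between libraries are not given in the sources used here. Column names matched sample titles, which gave the groups, and 0 columns were unmapped. From these values, log2(FPKM + 1) was computed and genes with a mean FPKM of at least 1 (13785) were tested in 1 limma 3.58.1 fit (R 4.3.3) over 6 groups, with a variance trend and Benjamini-Hochberg adjustment over all genes (threshold 0.05). The script was tested on simulated data. Single values had exact two-sided permutation tests of the day within constructs. Gene positions came from GENCODE 29, promoters from RefSeq (9 of 10 genes matched). Of 95 further list genes all had a row, TMEM35A by a RefSeq synonym. All 10 genes are named, with the smallest-p gene of each construct comparison, the 2 genes nearest in pattern to each, CHRFAM7A, ZNHIT3 and, in each list, up to 4 genes with the largest called change in WT and any at 0 throughout; others named beside them were chosen after their values were seen. Some list genes are not reported here. The members and lists were chosen with earlier results of these data known. Alternatives changed pseudocount, filter, scaling, block, trend, weights and libraries.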

Additional observations from a re-analysis of the deposited data

How the results depend on the processing

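The 11 counts of members called kept within 1.5 times their value under every alternative, and the 27 changes between days and 8 smallest-p differences between constructs kept their direction and side of the threshold in all alternatives run. Same-numbered libraries of different groups had deviations correlated at -0.36 to 0.17 (median -0.007), and different-numbered ones at -0.17 to 0.27 (median -0.0005). No pairing by replicate number was seen, but these correlations cannot exclude shared cultures or batches. With the replicate block 9 members were again called between days in each construct. CHAT is the exception: its change between days became -0.01687 (exact permutation p = 0.70) with quantile normalization, and without 1 library each it was 0.04 to 0.08; the cause was not tested. Leaving out small RNA genes with rescaling put the median WT change over all genes at 0.21 instead of 0.03, and 68.4% instead of 52.9% of the WT calls were then higher. Genes called over the whole table in C14R against WT at day 18 numbered 5, and 2 to 205 over the other settings (205 with array weights) and 126 without C14R replicate 2 of that day. For deletion against WT at day 18 the number was 10, with 2 to 95 over settings (6 with the replicate block) and 2 to 51 with 1 library left out (51 without C14R replicate 1 of day 18); for C14R against deletion it was 8 with 6 to 95 at day 0, and 1 to 10 with 1 library left out (1 without C14R replicate 1 or replicate 3 of day 0), and 4 with 2 to 16 at day 18; for deletion against WT at day 0 it was 4 with 1 to 5, and for the deletion interaction 2 with 1 to 7. Without a filter, the other nicotinic rows called in WT were 6 in place of 3; with a mean of at least 5 FPKM, 1. FPKM hold no counts, so no counting interval could be given for low genes such as CHAT.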

Other observations

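Noradrenergic genes moved beside the cholinergic ones. Of 8 genes (TH, DDC, DBH, SLC18A1, SLC18A2, SLC6A2, MAOA, GCH1), 7 could be tested, and in each construct 6 rose and 1 fell. Of all tested genes, 72.2% were called in WT (38.2% higher, 34.0% lower), 72.9% in C14R (37.9% and 35.0%) and 73.0% in deletion libraries (38.6% and 34.4%). DBH, which makes noradrenaline, rose in WT from 64.0 ± 3.26 to 445 ± 31.6 FPKM (SD, n = 3; log2 change 2.78, limma adjusted p = 8.9e-13). SLC18A2 and SLC18A1, the vesicular monoamine transporters, rose from 4.27 ± 0.330 to 23.6 ± 1.15 FPKM and from 6.89 ± 1.05 to 32.2 ± 1.65 FPKM (limma adjusted p = 2.4e-14 and 1.8e-12). SLC6A2, the noradrenaline transporter of the plasma membrane, fell from 49.1 ± 1.82 to 7.68 ± 0.293 FPKM (log2 change -2.53, limma adjusted p = 2.5e-15), a fall close in size to that of SLC5A7, the choline transporter of the plasma membrane (-2.48). In WT, the vesicular transporters of both systems were thus higher, and the plasma membrane transporters of both lower, at day 18.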
